A study of Mus musculus with 4 samples.

Results

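The added reporter and recombinase transcripts are 8 sequences that are not mouse genes and that stand in the feature list of every library beside the mouse genes. They were taken by name, as all features whose symbol ends in _trans, which gave 8 of 28006 features. Without that ending they are tdT-WPRE, eGFP, EYFP, mCherry, iCreER, CreER, Cre and CreER-WPRE. The study placed the tdTomato reporter (a red fluorescent protein) under the control of a recombinase made by cells that use Cxcl12, and asked what happens to these marrow stromal cells when the marrow of one femur is destroyed. All 4 libraries came from femurs of Cxcl12-iCreER; R26R(tdTomato/+) mice that had received tamoxifen 7 days before marrow ablation, and were taken 7 days after it. ABL libraries hold tdTomato+ cells sorted from the ablated femur, and CONT libraries hold tdTomato+ cells sorted from the other femur, so that both transgenes, the tamoxifen and the operation on the mouse are common to all groups. Each group has replicate 1, made with Chromium version 2 chemistry and, by the study's methods, pooled from several mice, and replicate 2, made with version 3. The recombinase is a bacterial artificial chromosome transgene and therefore reads Cxcl12 control sequences at its own place of insertion, not at the Cxcl12 gene.

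As background, Cre recombinase cuts out DNA that lies between a pair of loxP sites. Joined to a mutated estrogen receptor domain (CreER), it is meant to enter the nucleus only while tamoxifen is present. The paper reports that some mice of this line held tdTomato+ cells without tamoxifen, nearly all of them outside the stromal compartment. iCre is a version of Cre with codons suited to mammals. The R26R reporter holds tdTomato behind a stop cassette at the Rosa26 locus, with a strong general promoter, so that 1 event of recombination leaves the cell and all of its daughters tdTomato+ whether or not they go on making the recombinase. WPRE is a viral element placed at the end of a transgene to raise its RNA level. eGFP, EYFP and mCherry are other fluorescent proteins, carried by none of the alleles named in the labels. Cxcl12 is the chemokine that holds hematopoietic stem cells in the marrow, and it is made at very high level by the reticular stromal cells around marrow sinusoids.

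By their names several members share sequence: eGFP with EYFP, the Cre forms with each other, the estrogen receptor domain of the inducible forms, and WPRE in tdT-WPRE and CreER-WPRE. Reads from a shared stretch can be given to either feature or to neither, so the split within those pairs is uncertain. The sequences of the added features are not used here. On GRCm38 the Cxcl12 gene, from which the recombinase transgene takes its control sequences, lies on the plus strand of chromosome 6 from 117168535 to 117181367, and Gt(ROSA)26Sor, the non-coding gene of the Rosa26 locus, on the minus strand of the same chromosome from 113067428 to 113077333. The 250 bases before the Cxcl12 start (chr6:117168285-117168534, plus strand, RefSeq, GRCm38.p6) are shown because they are the native control sequence closest to the start. Capitals mark GGGCGG or its complement, the GC box of general promoters.

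Cxcl12 promoter: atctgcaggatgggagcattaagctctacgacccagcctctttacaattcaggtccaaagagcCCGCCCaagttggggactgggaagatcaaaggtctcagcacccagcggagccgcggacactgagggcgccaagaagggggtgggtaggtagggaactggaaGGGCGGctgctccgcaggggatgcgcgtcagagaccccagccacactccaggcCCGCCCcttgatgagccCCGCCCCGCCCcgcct

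The motif occurs 5 times in this window, 2 of them overlapping, with starts between 187 and 11 bases upstream. It is common, being present in 32.74% of the 32851 promoters of the RefSeq table over the same window.

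The 4 libraries held 22889380 to 44784072 UMIs (unique molecular identifiers, each standing for 1 captured RNA molecule). Below, runs of 4 values are ordered as CONT replicate 1, ABL replicate 1, CONT replicate 2, ABL replicate 2. Cells passing the study's filter and a UMI floor numbered 3433, 1459, 2404 and 2537. Cells were clustered with the 8 members, Cxcl12 and sex-linked genes left out, and clusters were named from marker lists; a class name such as reticular or osteoblast stands for cells like that type. Of 9833 cells, 5868 were mesenchymal, 229 endothelial and 3736 hematopoietic, although the labels call the sorted cells mesenchymal. At most 5 cell barcodes were shared by a pair of libraries. ABL replicate 2 stood apart: 0.1182% of its cells held Xist, the RNA of the inactive X chromosome, against 44.89 to 69.47% in the other libraries, and 70.52% held a Y-linked transcript against 12.61 to 27.2%. This goes against a description of ABL replicate 2 and CONT replicate 2 as opposite femurs of the same mice, and ABL values of the members and Cxcl12 are given by replicate below. The labels name no separate animals within a library, so the unit of the tests is the library, 4 in all. edgeR, the test used below, draws the spread of a gene toward that of all genes. The ABL against CONT fits leave a single residual degree of freedom, so their p-values rest largely on that shared spread. Levels are given as CPM, the UMIs of a transcript as a share of all UMIs of the cells summed, scaled to a common total, and their 95% exact Poisson intervals, like all intervals here, cover counting error only.

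Only 3 of the 8 members were detected in more than 1 cell of any library. The reporter tdT-WPRE had by far the most, with 24651, 15780, 35517 and 49107 UMIs, cells and empty droplets together. The recombinase iCreER, the one named in the genotype, had 218, 75, 537 and 297. CreER-WPRE had 88, 61, 6 and 9. EYFP, Cre and CreER had no UMI in any library, which allows a level of at most 0.06699 to 0.1311 CPM, from 3 counts of each library. mCherry had 1 UMI in CONT replicate 2 and 3 in ABL replicate 2, none of them in a cell.

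eGFP was at 0 in both libraries of replicate 1 and in ABL replicate 2, and had 17 UMIs in CONT replicate 2. Of these, 16 lay in a single cell and 1 in an empty droplet. That cell fell in the osteoblast class, held 22381 UMIs from 4136 genes and was not called a doublet. It also held 19 tdT-WPRE UMIs, 2 of Cxcl12, 8 of Y-linked genes, none of Xist and none of iCreER.

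tdT-WPRE was high in all mesenchymal and endothelial classes and low in hematopoietic cells, with the free RNA of empty droplets in between, except for osteoblasts of ABL replicate 2 and cycling cells of CONT replicate 2 (753 CPM), which were below the droplets too. Sorting was on the tdTomato protein, so its presence in the sorted cells is what the gate selected, and its level is a description of that gate as much as of the cells. In reticular cells it was 2107, 1617, 1105 and 1127 CPM. Both libraries of replicate 1 were above both of replicate 2. In empty droplets, barcodes with at most 300 UMIs, it was 446.7, 535.8, 923.2 and 886.5 CPM, the opposite order by replicate. In hematopoietic cells it was 81.58, 104.3, 117.5 and 324.8 CPM, below the empty droplets in each of the 4 libraries.

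**Figure D1:**
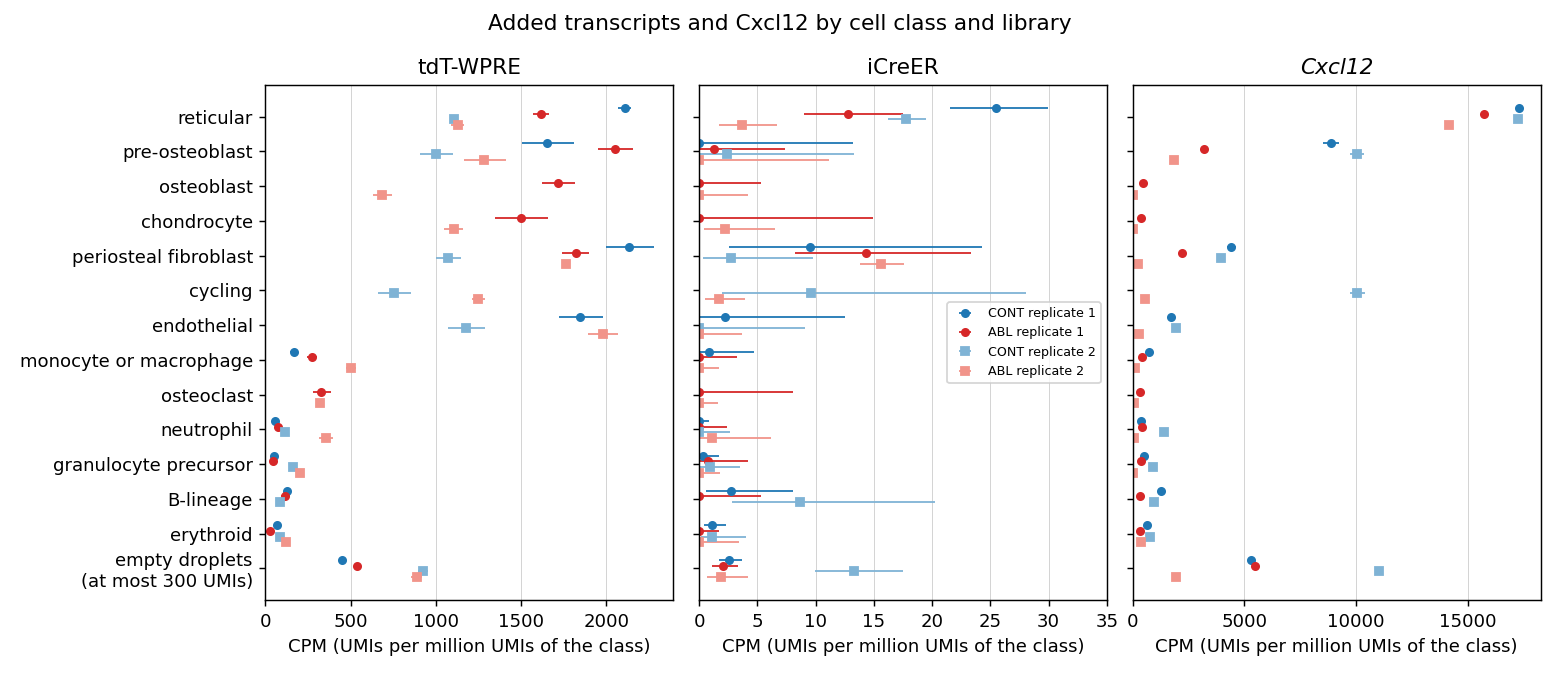
Level of tdT-WPRE, iCreER and Cxcl12 (x axis of each panel, CPM, linear) in each cell class of at least 10 cells and in empty droplets (y axis), with 1 point per library, colours for CONT and ABL, circles for replicate 1, squares for replicate 2 and bars for the 95% exact Poisson interval. tdT-WPRE lies between 997.4 and 2135 CPM in every reticular, pre-osteoblast, periosteal and endothelial sum, while iCreER goes from 0 to 25.48 CPM in the same sums.

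Fitted over all libraries, tdT-WPRE was higher in mesenchymal than in hematopoietic cells by 3.21 on the log2 scale (adjusted p = 3.66e-06, edgeR's quasi-likelihood test with the library as a block and Benjamini-Hochberg adjustment over all genes), a contrast in which 64.8% of all genes were called. It was higher in mesenchymal cells than in empty droplets by 1.22 (adjusted p = 0.0118, edgeR, with 23.9% of genes called), and lower in hematopoietic cells than in empty droplets by 1.99, a fitted difference of -1.99 (adjusted p = 0.000246, edgeR, with 50.7% called). The call against empty droplets was lost without CONT replicate 1, where the difference was 0.94, and without ABL replicate 1.

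Endothelial cells, which line vessels and are not of the reticular lineage, were not found in ABL replicate 1 and held tdT-WPRE at 1846, 1175 and 1979 CPM in the other libraries. These values lie within the range of the mesenchymal cells, at 2051, 1095 and 1557 CPM in the same libraries. The fitted difference, endothelial minus mesenchymal, was -0.26 (SE 0.32, adjusted p = 0.611, edgeR), in a contrast where 27.2% of genes were called. Against hematopoietic cells it was 2.94 (adjusted p = 2.8e-05, edgeR, with 45.2% of genes called). Against empty droplets it was 0.96 (adjusted p = 0.0408, edgeR, with 27.7% of genes called), a call lost without any 1 of CONT replicate 1, ABL replicate 1 or ABL replicate 2. Thinned to 1000 UMIs a cell, 73.86% of the endothelial cells of CONT replicate 1 (95% exact binomial interval 63.41 to 82.66) and 77.59% of those of ABL replicate 2 (68.91 to 84.81) held the reporter.

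Among mesenchymal classes the reporter followed no fixed order. Periosteal fibroblasts, which make the outer sheath of bone, were at 2135, 1819, 1072 and 1763 CPM. Pre-osteoblasts, the precursors of bone-forming cells, were at 1650, 2050, 997.4 and 1283 CPM. The pre-osteoblasts were lower than the reticular cells in both CONT libraries and higher in both ABL libraries. Reticular minus pre-osteoblast was -0.02 (SE 0.21, adjusted p = 0.992, edgeR, with 4.88% of genes called) and reticular minus periosteal -0.26 (SE 0.21, adjusted p = 0.406, edgeR, with 20.9% called).

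Mature osteoblasts and chondrocytes reached 10 cells only in the ABL libraries. Osteoblasts, led by Bglap, the gene of osteocalcin, held 1717 CPM (1621 to 1817) in ABL replicate 1 and 686.1 (632.4 to 743.1) in ABL replicate 2. The second value is below the 886.5 CPM of that library's empty droplets, and 69.39% of those 49 cells held a reporter UMI. Chondrocytes held 1497 CPM (1349 to 1657) and 1103 (1048 to 1160), and every one of the 15 and 72 cells held a reporter UMI.

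Ordered by level in ABL replicate 2, the library with most classes, endothelial cells came first at 1979 CPM (1893 to 2068), then periosteal fibroblasts at 1763 (1743 to 1783), pre-osteoblasts at 1283 (1164 to 1411), cycling mesenchymal cells at 1249 (1209 to 1289), reticular cells at 1127 (1087 to 1167), chondrocytes at 1103 and osteoblasts at 686.1. Intervals overlapped between pre-osteoblasts and cycling cells and between reticular cells and chondrocytes, and cycling and reticular cells were apart. In CONT replicate 1 the order was periosteal, reticular at 2107 (2070 to 2145), endothelial at 1846 (1722 to 1977) and pre-osteoblast at 1650 (1503 to 1808), and each neighbour overlapped except reticular and endothelial.

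Within hematopoietic cells the reporter is given by class. Monocytes and macrophages, the phagocytes of marrow, held 167.1 and 270.8 CPM in replicate 1 (CONT, then ABL) and 502.8 in ABL replicate 2. Osteoclasts, the bone-resorbing cells of the same lineage, held 328.4 and 320 CPM in the ABL libraries. Neutrophils held 58.55, 72.31, 111.9 and 353.2 CPM, and erythroid cells 67.74, 24.04, 82.45 and 118.1. T or NK cells, found only in ABL replicate 2, had the highest level at 531.7 CPM (457.5 to 614.6). All of these lie below the empty droplets of the same library.

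Set against the free RNA of the same library, the reporter had a higher ratio in hematopoietic cells than most stromal genes had. Its level there divided by that in empty droplets was 0.1826, 0.1946, 0.1273 and 0.3663. Over 9 stromal genes (Cxcl12, Igfbp5, Adipoq, Lpl, Col1a1, Col1a2, Sparc, Serping1 and Dcn) the median of the same ratio was 0.1085, 0.0686, 0.103 and 0.05113, with a highest member at 0.1672, 0.1816, 0.1192 and 0.56. The reporter was above every one of the 9 genes in 3 libraries, and below only Lpl, lipoprotein lipase, in ABL replicate 2. For iCreER the ratio was 0.2383, 0.06587, 0.1161 and 0.05891, on 11, 1, 9 and 1 UMIs. For 9 hematopoietic genes (S100a8, S100a9, Camp, Ngp, Hba-a1, Hbb-bs, Cd79a, Cd74 and Lyz2) the median was 1.424, 1.611, 7.723 and 5.535. The marker lists that named classes hold Col1a2, Dcn, Serping1, Adipoq, Lpl and all of these hematopoietic genes but Cd74 and Lyz2. Ratios of those genes are therefore partly set by the naming, from which the added sequences and Cxcl12 were left out.

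**Figure D2:**
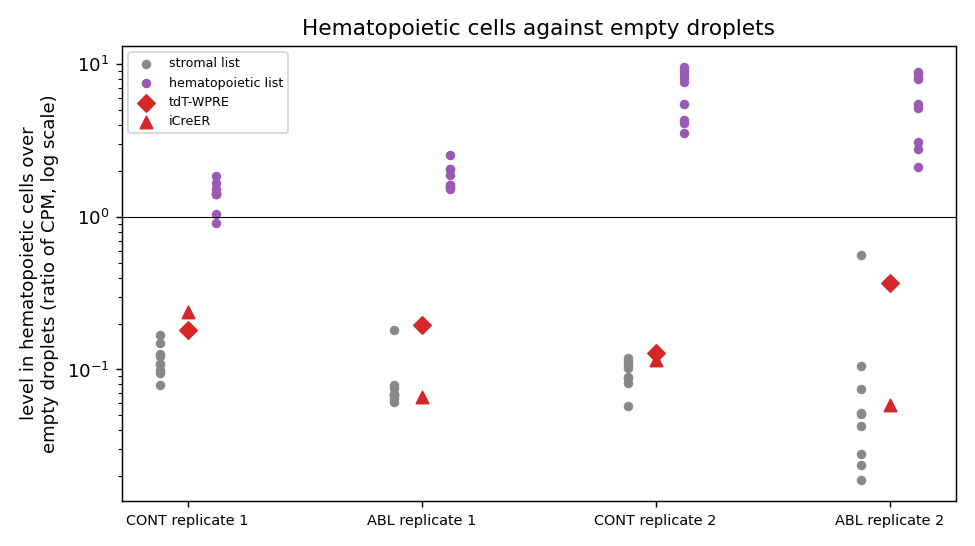
Level in hematopoietic cells divided by the level in empty droplets of the same library (y axis, ratio of CPM, log scale), for tdT-WPRE, iCreER and the genes of the stromal and hematopoietic lists, by library (x axis); the line marks a ratio of 1. tdT-WPRE lies at 0.1273 to 0.3663, above all 9 stromal genes in 3 libraries and above 8 of 9 in ABL replicate 2.

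Counted against Cxcl12 itself, hematopoietic cells held 141.6 tdT-WPRE UMIs per 1000 Cxcl12 UMIs (134 to 149.5) in CONT replicate 1, where empty droplets held 84.12 (81.64 to 86.65). Elsewhere the pair was 281.7 and 98 (ABL replicate 1), 119 and 83.85 (CONT replicate 2), and 3221 and 455.7 (ABL replicate 2). In all 4 libraries the ratio was higher in hematopoietic cells than in the droplets, with intervals apart.

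The recombinase iCreER, read from the Cxcl12 transgene, lay mostly in reticular cells in both CONT libraries and ABL replicate 1. In ABL replicate 2 it lay mostly in periosteal fibroblasts. It had at most 6 UMIs in any other class. Reticular cells held 147, 38, 463 and 10 iCreER UMIs. These are 25.48 CPM (21.53 to 29.95) and 12.76 (9.027 to 17.51) in replicate 1, CONT and then ABL, and 17.8 (16.22 to 19.5) and 3.649 (1.75 to 6.711) in replicate 2. They had 96.86% of all iCreER UMIs in cells of CONT replicate 2 but 3.448% of those of ABL replicate 2. Periosteal fibroblasts held 4, 16, 2 and 271 UMIs, or 9.487, 14.35, 2.697 and 15.64 CPM, and in ABL replicate 2 they had 93.45% of the library's total. In CONT replicate 2 their level was below the 13.32 CPM of empty droplets. In ABL replicate 1, 7 of the 16 UMIs lay in 1 cell, and in ABL replicate 2, 198 of the 271 lay in 1 cluster. The periosteal mean over libraries, 10.55 CPM, depends on which clusters enter the class, being 31.03 under the study's cell filter alone and 27.57 at clustering resolution 1.5.

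Other mesenchymal classes held few iCreER UMIs. Pre-osteoblasts held 0, 1, 1 and 0, osteoblasts 0 in both ABL libraries and chondrocytes 0 and 3. Cycling cells, found in the libraries of replicate 2, held 3 in CONT (9.612 CPM) and 5 in ABL (1.678 CPM), the latter all in 1 cell. For the 59 and 49 osteoblasts a count of 0 allows at most 4.325 and 3.413 CPM, from 3 counts, which is under the reticular level of ABL replicate 1 and close to that of ABL replicate 2. Reticular minus pre-osteoblast was 3.65 (SE 1.17, adjusted p = 0.108, edgeR), which missed the threshold, and DESeq2 and the fit with no filter on low counts called it. Reticular minus periosteal was -0.04 (SE 0.56, adjusted p = 0.985, edgeR), the balance of a higher reticular level in both CONT libraries and a lower one in both ABL libraries. The intervals of the classes overlapped in both libraries of replicate 1 and were apart in both of replicate 2. In ABL replicate 1, 7 of the 16 periosteal UMIs lay in 1 cell.

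Mesenchymal cells together held 22.23, 9.061, 17 and 11.29 iCreER CPM. Hematopoietic cells held 0.6088, 0.134, 1.546 and 0.1132 CPM, from 11, 1, 9 and 1 UMIs. Empty droplets lay between, at 2.555, 2.035, 13.32 and 1.921 CPM. Mesenchymal minus hematopoietic was 4.56 (adjusted p = 1.12e-05, edgeR), mesenchymal minus empty 2.01 (adjusted p = 0.00741, edgeR; lost without CONT replicate 1, at 1.69) and hematopoietic minus empty -2.54 (adjusted p = 0.00256, edgeR). Hematopoietic cells were below the empty droplets of their library in all 4.

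Endothelial cells carried the reporter with almost no recombinase. Over 3 libraries they held 1 iCreER UMI in CONT replicate 1 (2.24 CPM, 0.05672 to 12.48) and 0 in CONT replicate 2 and ABL replicate 2. The most numerous, 116 cells in ABL replicate 2, had 1985 tdT-WPRE UMIs and an iCreER limit of 2.991 CPM from 3 counts. Endothelial minus mesenchymal was -5.15 (SE 1.03, adjusted p = 0.00274, edgeR), and endothelial minus hematopoietic -0.59 (adjusted p = 0.799, edgeR). Cxcl12 was 1734, 1940 and 278.2 CPM in the same cells, below the 5311, 11010 and 1946 CPM of empty droplets, and its endothelial minus mesenchymal difference was -3.24 (adjusted p = 2.08e-05, edgeR).

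Within the reticular class iCreER was uneven between clusters. In CONT replicate 1 the cluster led by the chemokine genes Ccl2 and Ccl7 held 7.614 CPM, while a cluster led by Bmp4 held 36.7, and one led by the heat-shock genes Hsph1, Hspa1b and Hspa1a held 52.58. The same clusters of ABL replicate 1 held 4.99, 19.27 and 29.39 CPM, in the same order. In CONT replicate 2 the cluster led by Hspa1b, Hspa1a and Bmp4 was the highest of the reticular clusters, at 37.45 CPM (32.36 to 43.13), against 10.74 (8.614 to 13.23) in the one led by Aldh1a2 and Ccl2. tdT-WPRE in the 3 named clusters of CONT replicate 1 was 2282, 1901 and 1960 CPM, and in the Hspa1b and Aldh1a2 clusters of CONT replicate 2 it was 1071 and 1274. It did not follow the iCreER order: the cluster lowest in iCreER in CONT replicate 2, at 3.438 CPM, held 916.3 CPM of tdT-WPRE.

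Among periosteal fibroblasts of ABL replicate 2, 198 of the 271 iCreER UMIs lay in 1 cluster of 195 cells led by Prg4 (lubricin, of joint surfaces), Clic5 and F13a1. Its level was 60.74 CPM (52.58 to 69.82), the highest of any cluster of over 50 cells, and 64 of its cells (32.82%) held iCreER. Its Cxcl12 was 439 CPM, below the 1946 CPM of empty droplets. The clusters of the same class led by Clec3b and by Fmod held 5.064 and 5.279 iCreER CPM, and tdT-WPRE at 1781 and 1650 CPM against 2089 in the Prg4 cluster. The 11 cells of the Prg4 cluster in CONT replicate 2 held no iCreER, which leaves an upper limit of 49.8 CPM. In ABL replicate 1 a cluster of 11 cells led by Clec3b and Myoc held 5 iCreER UMIs, or 72.72 CPM (23.61 to 169.7).

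**Figure D3:**
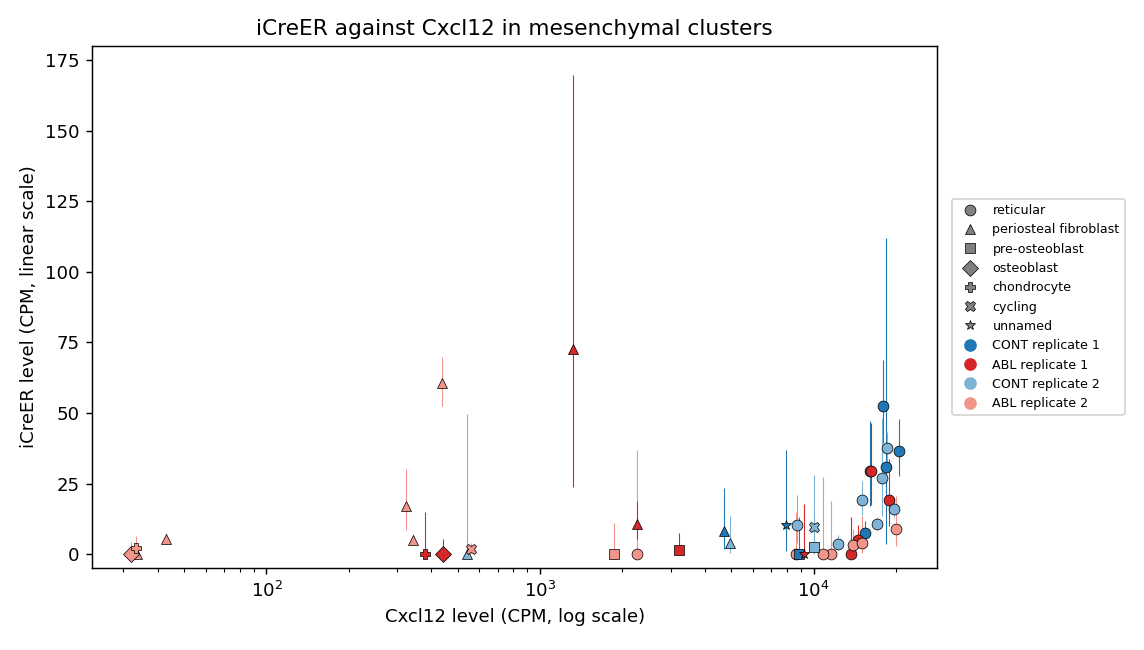
iCreER level (y axis, CPM, linear, with 95% exact Poisson intervals) against Cxcl12 level (x axis, CPM, log scale) for each mesenchymal cluster of the 4 libraries, with symbols for the class and colours for the library. Reticular clusters reach 52.58 iCreER CPM at high Cxcl12, and the Prg4 cluster of ABL replicate 2 stands at 439 Cxcl12 and 60.74 iCreER CPM.

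The ratio of recombinase to Cxcl12 RNA sets the classes on a common scale. Reticular cells held 1.475, 0.8113, 1.033 and 0.2573 iCreER UMIs per 1000 Cxcl12 UMIs. Periosteal fibroblasts held 2.148, 6.517, 0.6791 and 64.31. The ratio was the higher in periosteal cells in 3 of the 4 libraries, all but CONT replicate 2, and in ABL replicate 2 Cxcl12 there was 243.3 CPM, under the free RNA. For the reporter the same ratio was 122, 102.8, 64.16 and 79.44 in reticular cells and 483.4, 826.1, 269.9 and 7248 in periosteal fibroblasts. Cxcl12 was higher in reticular than in periosteal cells by 3.08 (adjusted p = 0.00174, edgeR), where the same contrast was -0.26 for tdT-WPRE and -0.04 for iCreER.

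iCreER was seen in few cells and was bunched in some of them. Without thinning, 9.043%, 7.538%, 13.16% and 2.601% of reticular cells held an iCreER UMI, and after thinning to 1000 UMIs 1.913%, 1.508%, 1.581% and 0%. The share in hematopoietic cells, which gives the background, was 0.4431%, 0.1305%, 1.227% and 0.1631% before thinning, at median depths of 7195, 7554, 14600 and 11100 UMIs against 4490, 6637, 12750 and 7468 in reticular cells. The highest single cell held 10, 7, 31 and 15 UMIs, and the top 1% of cells held 47.88%, 53.57%, 32.43% and 52.76% of all iCreER UMIs in cells. For tdT-WPRE the top 1% held 7.208%, 7.827%, 3.986% and 4.946%. That share is large for any rare transcript and does not by itself measure bunching. For CreER-WPRE, with at most 2 UMIs in any cell, it was 52.86%, 35.29%, 100% and 100%. The cell with 31 iCreER UMIs, a reticular cell of CONT replicate 2, held 245 Cxcl12 UMIs and 4 of tdT-WPRE.

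Reticular cells with an iCreER UMI did not hold more reporter RNA throughout. Their tdT-WPRE level was 1937 CPM (1823 to 2056) against 2126 (2086 to 2165) in reticular cells without one in CONT replicate 1, and 1404 (1259 to 1562) against 1635 (1588 to 1684) in ABL replicate 1. It was 1147 (1113 to 1181) against 1098 (1084 to 1112) in CONT replicate 2, and 1162 (932.2 to 1432) against 1126 (1086 to 1167) in ABL replicate 2. Lower in both libraries of replicate 1 and higher in both of replicate 2, the difference had no common direction. Cxcl12 was higher in the cells with iCreER in all 4 libraries, at 19900 against 17000 CPM, 17020 against 15610, 17490 against 17180 and 17950 against 14070. Cells with a UMI are deeper on the whole, with a median of 5038 UMIs against 4478 in CONT replicate 1.

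Per cell, the rank correlations of the transgene RNAs with Cxcl12 were low. Spearman's rho of tdT-WPRE with Cxcl12 over mesenchymal cells was -0.045 (1314 cells), -0.0999 (693), 0.1568 (2053) and -0.154 (1808). In reticular cells alone it was -0.1094, 0.0133, 0.1516 and 0.0652. For iCreER with Cxcl12 it was 0.148, 0.1177, 0.0516 and 0.1159 over mesenchymal cells. Thinned to 1000 UMIs the mean over libraries was 0.028. Only 8.371%, 5.772%, 12.81% and 6.969% of mesenchymal cells held an iCreER UMI before thinning, and all others tie at 0. Such ties limit how high rho can be, more so after thinning, so a low rho of iCreER alone does not show a weak relation. In reticular cells alone, not thinned, rho of iCreER with Cxcl12 was 0.1446, 0.0676, 0.0339 and 0.068. In periosteal fibroblasts alone it was 0.031 (71 cells), 0.1693 (106), 0.1629 (46) and 0.29 (1135), not thinned, and there the 114 cells of ABL replicate 2 with an iCreER UMI held 651.3 Cxcl12 CPM (614.9 to 689.2) against 194.7 (187.8 to 201.8) in the 1021 without. Both values lie below the Cxcl12 level of that library's empty droplets. Of the 114 cells, 64 lay in the Prg4 cluster. Clusters of the class differed in Cxcl12, at 439 CPM in the Prg4, 342.4 in the Clec3b and 42.8 in the Fmod cluster. How much of the rho of 0.29 lay between clusters was not tested. The cells of a library share its depth and free RNA, so these correlations and levels are descriptions with no test.

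Ranked on Cxcl12 CPM and cut into 10 bins of equal cell number, the reporter stayed in a narrow band while Cxcl12 went over its whole range. In CONT replicate 1 tdT-WPRE was 1840 CPM in the lowest bin and 1862 in the highest, where Cxcl12 was 2735 and 26230 CPM. The pair of tdT-WPRE values was 1784 and 1569 in ABL replicate 1 and 854.3 and 1177 in CONT replicate 2. In ABL replicate 2, 629 mesenchymal cells held no Cxcl12 UMI and shared a rank, and their tdT-WPRE was 1574 CPM, against 1134 in the highest bin. iCreER was 6.889 CPM in the lowest bin and 42.74 in the highest of CONT replicate 1, 1.037 and 15.94 in ABL replicate 1, and 3.512 and 16.65 in CONT replicate 2. ABL replicate 2 had its highest value, 40.85 CPM, in bin 8, and 4.225 in the highest, and the cells with no Cxcl12 UMI held 23 iCreER UMIs, or 2.301 CPM. Cut in the same way, reticular cells alone held 14.11 iCreER CPM in the lowest bin and 16.44 in the highest of CONT replicate 2. The pair was 7.147 and 42.06 in CONT replicate 1, 6.645 and 17.11 in ABL replicate 1, and 0 and 10.97 in ABL replicate 2.

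**Figure D4:**
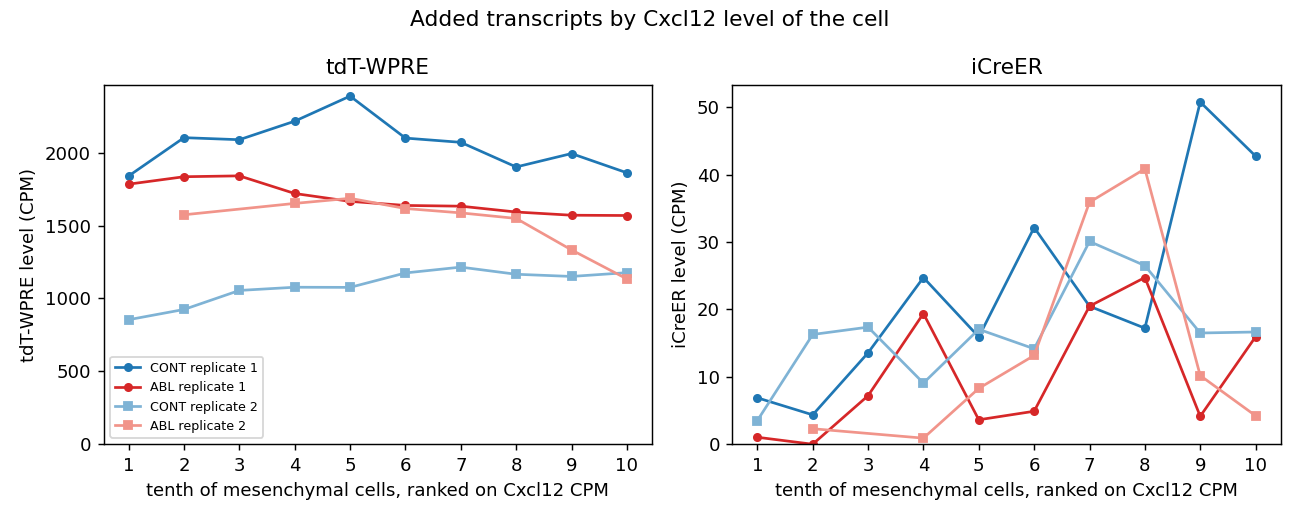
Level of tdT-WPRE and iCreER (y axes, CPM) in 10 bins of mesenchymal cells ranked from low to high Cxcl12 CPM (x axis), with 1 line per library; cells tied at 0 in ABL replicate 2 share 1 point. tdT-WPRE lies between 854.3 and 2388 CPM in all bins, and iCreER is higher in the highest than in the lowest bin in CONT replicate 1, ABL replicate 1 and CONT replicate 2.

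CreER-WPRE was found mostly in replicate 1, and its count went with that of tdT-WPRE. Its UMIs in cells were 70, 51, 4 and 9, or 4.265, 4.593, 0.1275 and 0.2012 per 1000 tdT-WPRE UMIs. The ratio was close in the CONT and ABL libraries of a replicate. In replicate 1 it was 4.689 and 4.36 in reticular cells and 4.071 and 5.141 in hematopoietic cells. The hematopoietic values rest on 6 and 4 CreER-WPRE UMIs, too few to tell whether the classes differ. No cell held more than 2 of its UMIs. In CONT replicate 1 all 54 reticular cells with CreER-WPRE held tdT-WPRE, as did 97.81% of the 1096 without it. The tdT-WPRE level was 2674 CPM (2491 to 2866) in the cells with CreER-WPRE against 2076 (2038 to 2115) in those without. Mesenchymal minus hematopoietic was 3.54 (adjusted p = 0.000796, edgeR) and mesenchymal minus empty 3.11 (adjusted p = 0.00958, edgeR), the latter lost with empty droplets of at most 100 UMIs (2.25, adjusted p = 0.0742, edgeR). The genotype in the labels names no second CreER, and the WPRE element is common to both names.

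Comparing ABL with CONT asks whether the transgenes were read at another level after marrow loss. tdT-WPRE in mesenchymal cells was lower in ABL in replicate 1, 1701 against 2051 CPM, and higher in replicate 2, 1557 against 1095. Fitted with the replicate as a block the difference was 0.08 (adjusted p = 0.98, edgeR), in a contrast where 1.99% of genes were called. In reticular cells it was -0.28 (adjusted p = 0.847, edgeR, with 4.55% of genes called), and in hematopoietic cells 0.77 (adjusted p = 0.356, edgeR, with 6.3% called). Cxcl12 in reticular cells was 15720 against 17280 CPM and 14180 against 17230, a difference of -0.31 (adjusted p = 0.889, edgeR).

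iCreER in reticular cells was lower in ABL in both replicates, 12.76 against 25.48 CPM in replicate 1 and 3.649 against 17.8 in replicate 2, with intervals apart in each. Empty droplets were lower in ABL too, at 2.035 against 2.555 CPM in replicate 1 and 1.921 against 13.32 in replicate 2. The intervals of reticular cells and empty droplets overlapped in both libraries of replicate 2 and were apart in both of replicate 1. How far free RNA enters the reticular fall was not tested. For reticular cells the replicates alone gave -1.0 and -2.29 on the log2 scale. The fit with the replicate as a block gave -1.61 (SE 0.32, adjusted p = 6.98e-05, edgeR). The fit leaves a single residual degree of freedom, so its SE and p come largely from a spread shared with other genes. They do not measure the gap between the 2 replicates. The result also rests on the block and on the tool: with no replicate block it was -1.50 (adjusted p = 1, edgeR), and with DESeq2 -1.69 (adjusted p = 0.0667). Leaving out any 1 library leaves no residual spread to test, and the value was -2.32 without either library of replicate 1, -1.13 without ABL replicate 2 and -1.11 without CONT replicate 2. Among cells that held a Y-linked transcript but lacked Xist, which are of 1 sex, the log2 ratio was -2.20 in replicate 2 (6 UMIs in ABL and 100 in CONT), and replicate 1 went from 41 UMIs to 0 in 45 cells. Cells of 1 sex can still come from different animals. Since Xist goes against the same mice in both libraries of replicate 2, ablation and animal cannot be told apart there.

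Few UMIs stand behind single clusters of the reticular class in ABL. Of 11 reticular clusters shared by the CONT and ABL libraries of a replicate, iCreER was lower in ABL in 11, with intervals apart in 2, and tdT-WPRE was lower in 7. In 5 of the 11 the ABL cells, 15 to 47 a cluster, held no iCreER UMI, and in 4 of those 5 the interval of the ABL value overlapped that of CONT, so that a difference was not detectable at this depth. In periosteal fibroblasts the ABL level was the higher, with 14.35 against 9.487 CPM in replicate 1 and 15.64 against 2.697 in replicate 2, on 4 and 2 UMIs in CONT. Of the 16 periosteal UMIs of ABL replicate 1, 7 lay in 1 cell, so that the direction in replicate 1 rests largely on that cell. The class had much the same makeup in CONT and ABL of replicate 1. There 1 cluster held 63 of 71 CONT and 95 of 106 ABL cells. In its clusters the class differed in replicate 2. In replicate 2 it had 46 CONT and 1135 ABL cells, the Prg4 cluster with 198 of the 271 ABL UMIs had 11 CONT and 195 ABL cells, and the Clec3b, Fmod and C1qtnf3 clusters of ABL had no CONT counterpart of at least 10 cells. In replicate 1 the cluster present in both libraries held 10.52 CPM in ABL (5.25 to 18.82) and 8.067 in CONT (1.664 to 23.57). Of its 11 ABL UMIs, 7 lay in 1 cell. The class value of ABL holds the 11 cells at 72.72 CPM as well, and that of CONT holds its few cells outside the shared cluster. How the level was split between cell makeup and RNA per cell was not tested. The test of that difference between classes gave -3.31 (SE 0.86, adjusted p = 0.328, edgeR), a comparison chosen after seeing the values, in which 0.0172% of genes were called. Over all mesenchymal cells iCreER was -0.97 (adjusted p = 0.299, edgeR).

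**Figure D5:**
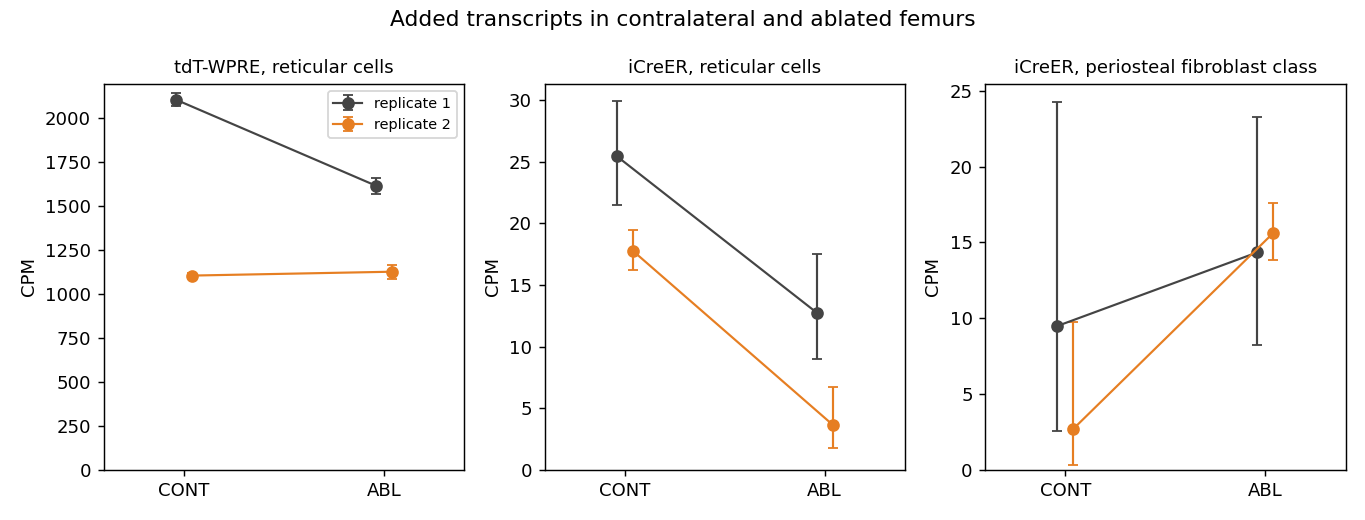
Level (y axis, CPM, linear from 0) in CONT and ABL libraries (x axis) of tdT-WPRE in reticular cells, iCreER in reticular cells and iCreER in periosteal fibroblasts, with the libraries of a replicate joined and bars for the 95% exact Poisson interval. iCreER in reticular cells is lower in ABL in both replicates with intervals apart, and in periosteal fibroblasts the intervals overlap in replicate 1.

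No gene of 13657 had an ABL effect that differed between mesenchymal and hematopoietic cells in edgeR (0% called), though 1527 had an unadjusted p under 0.05 and DESeq2 called 143. For tdT-WPRE that difference was -0.70 (adjusted p = 0.665, edgeR) and for iCreER 2.09 (adjusted p = 0.464, edgeR).

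The niche list, 16 genes by which reticular cells support hematopoiesis or by which they are known, gives the setting for these values. In reticular cells 1 of 16 was called lower in ABL and none higher, where 4.55% of all genes tested were called, and the median was -0.24 against -0.01 over all of them. The gene called was Lepr, the leptin receptor that marks these cells, at 1244, 704.6, 2196 and 611.3 CPM and a fitted -1.43 (adjusted p = 0.0248, edgeR). With no replicate block Lepr was not called (adjusted p = 1, edgeR). Il7, a lymphoid growth factor, was -0.73 (adjusted p = 0.0851, edgeR) and Kitl, the stem cell factor, -0.58 (adjusted p = 0.566, edgeR). Of the Rosa26 locus, Gt(ROSA)26Sor was -0.32 (adjusted p = 0.607, edgeR), and none of the 3 genes was called.

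Across 47 sums of a class in a library, centred within the library, the genes whose log2 profile was most like that of tdT-WPRE were Eva1b (Pearson r = 0.917), Rhoc (0.915), Socs3 (0.91), Fosb (0.908) and Laptm4a (0.905), among 2673 genes of at least 50 CPM. Cxcl12 reached 0.631, at rank 624. Below that limit of level, Gt(ROSA)26Sor (mean 23.82 CPM) reached 0.653 and iCreER (mean 3.175 CPM) 0.485. Of the other genes of the Rosa26 locus, Setd5 was at 0.6515 and Thumpd3, also below the limit, at -0.4738. These sums share libraries and classes, and the values describe likeness only. Gt(ROSA)26Sor, the host locus of the reporter, was 41.99, 37.4, 27.07 and 21.48 CPM in mesenchymal cells. Hematopoietic cells held 16.88, 15.01, 12.89 and 11.2 CPM of it. It was 53.77, 26.98 and 38.88 CPM in the endothelial cells of the 3 libraries that had them. Like the reporter, it was detected in all 3 groups and was higher in mesenchymal than in hematopoietic cells in every library.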

How the data were processed

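The authors deposited UMI counts per gene and barcode for 4 libraries of tdTomato+ cells sorted from mouse femurs, all barcodes included. Per the labels, the submitters' processing notes name Cell Ranger, Seurat and mm10, and the reference held 8 added sequences. Barcodes were kept that passed the study's limits (version 2 chemistry: 500 genes or more, mitochondrial share 20% or less; version 3: 1000 genes, 15%) and with UMIs of at least 1/10 of the 99th percentile of the 3000 deepest barcodes. Cells of each library were clustered in Seurat at resolution 0.8 to call their lineage. Mesenchymal cells of the CONT and ABL libraries of a replicate were then integrated in Seurat and clustered together at resolution 0.8. Both steps left out the added sequences, Cxcl12 and sex-linked genes, and clusters were named from fixed marker lists. Score thresholds for naming were set after seeing the data. Scrublet marked 113 doublets, which were kept. Counts were summed per library and class of at least 10 cells and tested with edgeR's quasi-likelihood test (TMM, filterByExpr, Benjamini-Hochberg, threshold 0.05), with the library as a block between classes and the replicate number between ABL and CONT. The replicate number also marks the chemistry, and over 2913 genes the deviations of same-numbered libraries correlated at 0.3934. Simulated data gave all sums a common profile and a common spread, with genes picked at random changed by a set amount. There the test recovered most set changes between classes and in the ABL comparisons of reticular and hematopoietic cells, and a minority in that of mesenchymal cells and in the interaction. The setting is simpler than the real data and does not give the power for low counts such as those of iCreER. The members and gene lists were chosen with earlier results of these data known. Named genes are the 8 members, Cxcl12, the 5 genes most like tdT-WPRE and the fixed niche, Rosa26, stromal and hematopoietic lists. Alternatives covered the scaling, low-count filter, tool, block, cell filter, doublets, resolution, the droplet limit, thinning and leaving out each library.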

Additional observations from a re-analysis of the deposited data

Results flagged for a closer look

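The eGFP feature was read from no allele named in the labels, yet CONT replicate 2 held 16 eGFP UMIs in cells, all of them in a single cell, while the other 3 libraries held none. That cell also carried the tdTomato reporter and Y-linked transcripts. A gap of this kind in a single cell has no replicate, and its source was not tested.

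The ABL to CONT ratio of iCreER had opposite signs in reticular cells and periosteal fibroblasts. In reticular cells the log2 ratio of ABL to CONT was -1.0 in replicate 1 and -2.29 in replicate 2, while in periosteal fibroblasts it was 0.6 and 2.54. The test of the difference itself gave -3.31 (SE 0.86, adjusted p = 0.328, edgeR), with 0.0172% of genes called. The comparison was chosen after seeing these values. With no filter on low counts the adjusted p was 8.56e-05 (edgeR), in a setting that called many more genes than the main fit. The periosteal CONT levels rest on 4 and 2 UMIs, and 7 of the 16 periosteal UMIs of ABL replicate 1 lay in 1 cell. In replicate 2 the periosteal class differed in its clusters between CONT and ABL, with 46 against 1135 cells. A single Prg4-led cluster carried 198 of the 271 ABL UMIs there.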

How the results depend on the processing

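Of 970 alternatives over 91 results, 850 kept the direction and the side of the threshold, 29 lost and 18 gained a call, 50 moved a value or count and 23 changed sign. The reticular fall of iCreER was -1.69 with DESeq2 and -1.50 with no replicate block, neither called, and -2.32 to -1.11 with a library left out, with no test. The class difference of that effect became a call with no filter on low counts (-3.49), at resolution 1.5 (-3.84), under the study's filter alone (-12.35) and without ABL replicate 1 (-4.45 to -2.27 over libraries). That of tdT-WPRE became one only without ABL replicate 1 (-1.02 to -0.29 over libraries). With the replicate block in place of the library block, tdT-WPRE endothelial minus empty (1.06) and iCreER mesenchymal minus empty (1.80) lost their calls. Leaving out a library gave 0.64 to 1.34 for the former, 0.94 to 1.61 for tdT-WPRE mesenchymal minus empty and 1.69 to 2.70 for iCreER. iCreER reticular minus pre-osteoblast was called with DESeq2 (3.62) and no filter (3.86), and ranged from 3.05 to 4.10 over libraries. Among differences under the threshold, tdT-WPRE reticular minus pre-osteoblast changed sign with no filter (0.20), at resolution 0.4 (0.078), under the study's filter (0.067) and over libraries (-0.22 to 0.056). iCreER reticular minus periosteal did so with DESeq2 (0.18), no TMM (0.050), no filter (0.11), the replicate block (0.21), the stricter cell filter (0.052) and over libraries (-0.58 to 0.92). iCreER endothelial minus hematopoietic did so with no TMM (0.041), the study's filter (0.61) and over libraries (-5.39 to 0.49). ABL minus CONT in mesenchymal cells ranged over libraries from -0.36 to 0.53 for tdT-WPRE and from -0.28 to 1.06 for CreER-WPRE, which was -0.24 with no replicate block. The ABL effect in mesenchymal minus hematopoietic cells ranged over libraries from -0.74 to 1.39 for CreER-WPRE and from -0.013 to 0.092 for Cxcl12, which was -0.040 with no TMM.

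Genes called, ABL minus CONT, were 273 in mesenchymal cells but 661 with DESeq2, 661 with doublets removed, 1050 with no TMM, 890 with no filter and 1077 with the stricter cell filter. In hematopoietic cells the 752 became 253 with DESeq2 and 354 with doublets removed, and in reticular cells the 517 became 163 with DESeq2. With no replicate block all 3 counts were 0. The mesenchymal minus hematopoietic effect went from 0 genes to 143 with DESeq2 and 3 with no filter. The reticular minus periosteal effect went from 2 to 64 with DESeq2, 398 with no filter, 293 at resolution 1.5, 129 under the study's filter, 1 under 5 other settings, and 0 to 1125 over libraries. Between classes, mesenchymal minus empty gave 3288, 1824 with the replicate block and 931 to 3916 over libraries, and endothelial minus empty 2174 to 2969 over libraries. Reticular minus periosteal gave 1810, 3046 with no filter, 1045 with the replicate block, 1169 with the stricter filter and 1102 to 1515 over libraries. Reticular minus pre-osteoblast gave 422, 1220 with no filter, 119 with the replicate block, 87 at resolution 0.4, 139 under the study's filter and 129 to 543 over libraries.

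As means over libraries, mesenchymal cells with tdT-WPRE were 73.55% at 1000 UMIs, 87.66% at 2000 and 96.81% unthinned, and hematopoietic cells 13.23% and 40.27% unthinned. For iCreER they were 1.339%, 2.814% and 8.481% of mesenchymal cells, and 0.089% and 0.491% of hematopoietic cells. Periosteal iCreER was 10.55 CPM, 31.03 under the study's filter and 27.57 at resolution 1.5. The mean rho of iCreER with Cxcl12 over mesenchymal cells was 0.028 on thinning to 1000 UMIs. Without TMM the median of all genes moved from 0.03 to 0.36 for mesenchymal minus hematopoietic, from 0.05 to -0.30 for hematopoietic minus empty and from -0.20 to 0.36 for endothelial minus hematopoietic. The causes of these shifts were not tested.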
